A study of Mus musculus with 12 samples.

Results

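The desmosomal cadherins Dsg4, Dsg3, Dsg2, Dsg1a, Dsc1, Dsc2 and Dsc3, the armadillo proteins Jup and Pkp1 and the plakin Dsp were described across all comparisons of a DNA microarray experiment on mouse back skin. A probe belonged to the group when the gene name in the array files equalled one of these 10 symbols. The rule found 20 probes for the 10 genes, of 41174 probes and 27373 gene names in all. Dsg2 had 5 probes, Dsp 4, Dsc2 3 and Dsg3 2, and each of the other 6 genes had 1. Each gene is represented below by its probe with the highest mean signal unless another probe is named.

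RNA was from whole back skin of male C57BL/6J mice that were 8 weeks old at the start and had been shaved the day before the first application. A daily volume of 200 µL of MXD (3%), N-CE (10%) or VC was applied to the back, and skin was sampled after 1 week (1W), 2 weeks (2W) or 3 weeks (3W). MXD is minoxidil, a hair growth agent in clinical use. N-CE is a cell extract of the cactus Notocactus ottonis obtained under vacuum at low temperature, and VC is the vehicle of propylene glycol, ethanol and water. The pooled RNA of 6 treated mice met the pooled RNA of the 6 VC mice of that week on 2 arrays, with the dyes exchanged between them. Array 1 carries the treated pool in Cy5 and array 2 in Cy3. The 12 arrays give 6 comparisons, each of 1 treated pool against 1 VC pool, so the SD over 2 arrays is technical and no test between groups exists within a week. Slide and VC pool are common to the 4 arrays of each week, so week and slide cannot be told apart. In whole skin, fewer cells of a type and less RNA per cell cannot be told apart either.

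Desmosomes are the plaques that tie epithelial cells to each other and to their keratin filaments. Desmogleins (Dsg) and desmocollins (Dsc) are the cadherins that meet between cells. Inside the cell, plakoglobin (Jup) and plakophilins such as Pkp1 bind the cadherin tails, and desmoplakin (Dsp) links them to keratin. Dsg1 and Dsc1 are most abundant in the upper epidermis, Dsg3 and Dsc3 in the lower epidermis, Dsg2 and Dsc2 in simple epithelia and in parts of the hair follicle, and Dsg4 in the growing hair shaft and the uppermost epidermis. Loss of Dsg4 gives the brittle hair of lanceolate hair mice.

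A gene was called in a comparison when its mean fold over the 2 arrays was above 1.5 or below 0.75 and both arrays pointed the same way with a Feature Extraction P under 0.01. All 10 genes were measured in all 6 comparisons, that is, well above background in at least 1 channel. In MXD 2W, 3 of the 10 genes were called higher (Dsg4, Dsc2 and Dsg3), where 6.21% of the 18771 measured genes were called higher, and 0 were called lower, against 10.0% of all. In N-CE 1W, Dsg4 alone was called lower, against 2.78% of 18255 genes, and 0 members were called higher, against 0.542%. The other 4 comparisons called 0 of the 10 genes. There the share of all genes called higher and lower was 1.25% and 1.26% in MXD 1W, 0.118% and 0.0749% in N-CE 2W, 0.292% and 0.286% in MXD 3W, and 0.207% and 0.213% in N-CE 3W. The log2 ratios of the 2 arrays were less alike in some comparisons. Over probes above background in every channel, Pearson r was -0.17 in N-CE 2W, 0.26 in MXD 3W and 0.35 in N-CE 3W. It was 0.57 in MXD 1W, 0.60 in N-CE 1W and 0.71 in MXD 2W. As a call needs both arrays to point the same way, few or 0 calls do not show that genes were unchanged.

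**Figure D1:**
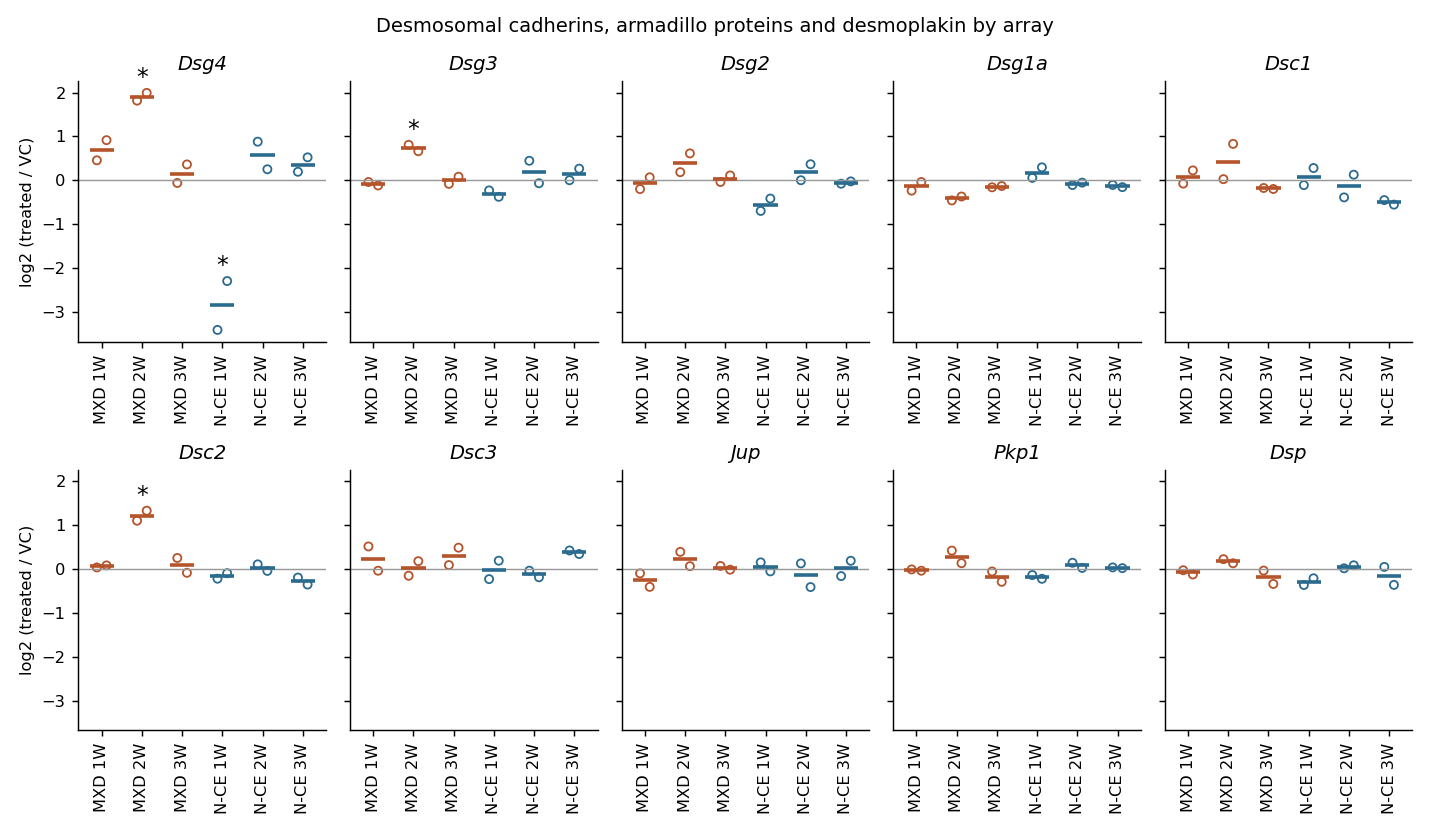
Each panel plots 1 member, with the 6 comparisons on the horizontal axis and log2 of treated over VC on the vertical axis. Open circles are the 2 dye-swap arrays (array 1 at left), bars are their mean, and an asterisk marks a called value. The mean of Dsg4 lies at 1.91 in MXD 2W and at -2.85 in N-CE 1W, while the means of Jup, Pkp1 and Dsp stay between -0.29 and 0.28.

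Dsg4, the desmoglein of the hair shaft, was the only member called in more than 1 comparison and in both directions. Its log2 ratio to VC in MXD 2W was 1.82 on array 1 and 1.99 on array 2, a fold of 3.75. In N-CE 1W it was -3.41 and -2.30, a fold of 0.138. All 4 of these values lie outside the range of the other 8 Dsg4 values, which ran from -0.06 to 0.92.

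The low value of Dsg4 in N-CE 1W rests on a dim probe. The mean processed intensity was 31.6 in the N-CE pool against 221 in the VC pool, and the N-CE signal was well above background on 1 of the 2 arrays. When the background was modelled with normexp instead of subtracted, the log2 ratio was -1.13 ± 0.20 (SD, n = 2 arrays), the same direction with a smaller size. In MXD 2W the intensities were 3058 and 813, and the ratio with normexp was 1.66 ± 0.14.

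The remaining 4 Dsg4 comparisons did not pass the call. In MXD 1W the arrays gave 0.46 and 0.92, both above 0, and the fold of 1.61 met the fold limit, but the P passed on array 2 only. In N-CE 2W the arrays gave 0.88 and 0.25, and in N-CE 3W 0.20 and 0.52, again all above 0. In MXD 3W they gave -0.06 and 0.36, on either side of 0. The Dsg4 probe lies on mouse chromosome 18 at chr18:20630260-20630319 (mm9, plus strand).

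Dsc2, the most widely expressed desmocollin, rose in MXD 2W. The log2 ratio was 1.10 on array 1 and 1.33 on array 2, with a mean of 1.22 ± 0.16 and a fold of 2.32. All 3 Dsc2 probes were called there, and the other pair had means of 1.40 ± 0.11 and 1.24 ± 0.12. In the 5 other comparisons the representative probe ranged from -0.35 to 0.25 on single arrays, and both array values in MXD 2W lie above that range. In N-CE 3W its arrays gave -0.19 and -0.35. The other pair of probes had means of -0.44 ± 0.26 and -0.46 ± 0.17 in N-CE 3W, past the lower fold limit but with the P passing on array 1 only.

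Dsg3, the desmoglein of the lower epidermis and the main antigen of pemphigus vulgaris, also rose in MXD 2W. Its arrays gave 0.81 and 0.66, a fold of 1.67, and with normexp the mean was 0.56 ± 0.14, short of the fold limit. In the other comparisons its array values ran from -0.38 to 0.45, so those of MXD 2W stand above them. The lowest were those of N-CE 1W, -0.23 and -0.38, which were not called. The second Dsg3 probe gave -0.37 and -0.46 in MXD 2W, opposite in sign. It was well above background in the MXD pool on 1 of 2 arrays only and was not called in any comparison. No accession of this second probe matched the gene table, while the representative probe matched Dsg3.

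Dsg2, the most widely expressed desmoglein, was not called by its representative probe, which reads the far 3′ end of the transcript. In MXD 2W that probe gave 0.19 and 0.61. A second, dimmer probe gave 0.76 and 1.04 and was called, but its mean with normexp was 0.31 ± 0.03, short of the fold limit. Another gave 0.87 and 0.55, with a fold of 1.63 and a P that missed the threshold on array 2. All 5 Dsg2 probes had a mean above 0 in MXD 2W, although 1 of them was not above background in any comparison. In N-CE 1W the representative probe gave -0.70 and -0.42, a fold of 0.680, and the P passed on array 1 only. In N-CE 3W the representative probe gave -0.08 and -0.02, while the next brightest Dsg2 probe gave 0.37 and 0.41.

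Dsg1a, a desmoglein of the upper epidermis, did not share the direction of Dsg4, Dsc2 and Dsg3. Its ratio in MXD 2W was -0.46 on array 1 and -0.37 on array 2, and its fold of 0.751 fell just short of the limit. All 6 of its MXD array values were below 0, between -0.46 and -0.04. The mean log2 ratio over the 3 MXD weeks was -0.23 ± 0.09 (SE), with a raw p of 0.048 and an adjusted p of 0.48 in limma over all probes. In N-CE 1W the arrays gave 0.06 and 0.30. Dsg1b and Dsg1c are closely similar copies of Dsg1a, and the Dsg1a probe matches the accession of Dsg1a alone.

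Dsc1, a desmocollin of the upper epidermis, was not called. Its arrays disagreed in MXD 2W, with 0.03 on array 1 and 0.83 on array 2. Its values farthest from 0 on both arrays were those of N-CE 3W, -0.45 and -0.55, where the fold of 0.706 passed the limit but the P passed on array 2 only. Dsc3, the desmocollin of the lower epidermis, was not called either, and no accession of its only probe matched the gene table. Its mean log2 ratios ran from -0.11 to 0.38, and its arrays differed in sign in 3 comparisons. The cadherin genes lie in 1 cluster on chromosome 18, and their probes stretch from chr18:20121880-20121939 (Dsc3) to chr18:20762245-20762304 (Dsg2) on mm9. Along the cluster, members called in MXD 2W (Dsc2, Dsg4, Dsg3) are interspersed with members that were not (Dsc3, Dsc1, Dsg1a, Dsg2 by its representative probe).

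The plaque proteins moved least. Jup had mean log2 ratios between -0.25 and 0.23, Pkp1 between -0.18 and 0.28, and Dsp between -0.29 and 0.18, and 0 of them were called in any comparison. In MXD 2W, both arrays lay above 0 for Jup (0.39 and 0.07), Pkp1 (0.42 and 0.13) and Dsp (0.23 and 0.13). In MXD 3W both arrays lay below 0 for Pkp1 (-0.06 and -0.29) and Dsp (-0.03 and -0.34). These values are of the size of the difference between dye-swap arrays.

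Of the 4 Dsp probes, 3 are shown because they read different stretches of the message and did not give the same values. The letters are those of the array file, 5′ to 3′ in the sense of the transcript, on the plus strand of mouse chromosome 13 (mm9). The first begins at base 5665 of the annotated transcript and its ends lie 1100 bases apart in the genome, at chr13:38285480-38286579, so its 60 bases come from separate exons. The second begins at base 6803 (chr13:38287658-38287717) and the third at base 8879 (chr13:38289734-38289793).
A_51_P201884: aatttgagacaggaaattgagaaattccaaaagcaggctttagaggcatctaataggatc
A_52_P549815: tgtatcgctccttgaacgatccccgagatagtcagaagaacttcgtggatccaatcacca
A_52_P242544: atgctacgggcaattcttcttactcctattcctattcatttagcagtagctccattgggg
The fourth Dsp probe, which represents the gene, begins at base 9266.

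The 4 Dsp probes were compared in MXD 2W and N-CE 3W. In MXD 2W the probe at base 5665 gave -0.08 and 0.84, the probe at base 6803 gave 0.17 and 0.91, the probe at base 8879 gave 0.48 and 0.03, and the representative probe gave 0.23 and 0.13. In N-CE 3W the upstream probes lay above 0 on both arrays (0.35 and 0.65, and 0.36 and 0.61) while the probe at base 8879 lay below 0 (-0.16 and -0.23) and the representative probe on either side of it (0.05 and -0.36). None of these values was called, and the reading of Dsp as little moved rests on the downstream probes, which are the brightest.

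**Figure D2:**
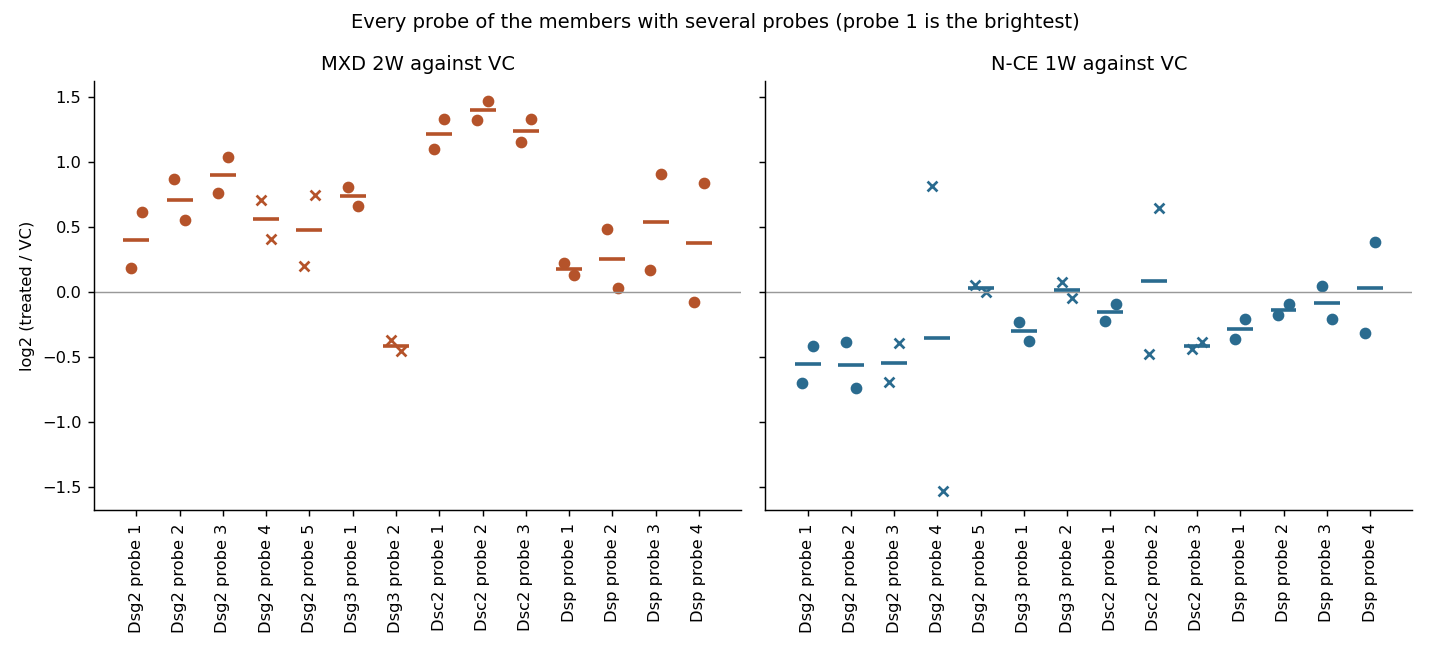
All probes of Dsg2, Dsg3, Dsc2 and Dsp are plotted for MXD 2W (left) and N-CE 1W (right), with log2 of treated over VC on the vertical axis and the 2 arrays beside each other. Filled circles mark probes well above background in both groups on both arrays, crosses the others, and bars the mean. The 3 Dsc2 probes lie together between 1.10 and 1.47 in MXD 2W, and the dim second Dsg3 probe lies at -0.41.

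Taking the 10 members together, the median log2 ratio was 0.34 in MXD 2W, where the median of all measured genes was 0.03, and 9 of the 10 means and 8 of the 10 array pairs lay above 0. In N-CE 1W the median was -0.17 against 0.02 for all genes, and 6 members were below 0 on both arrays. Signs were not counted over all genes, so these counts of members have no background share beside them. In MXD 1W, N-CE 2W, MXD 3W and N-CE 3W the medians lay between -0.04 and 0.04.

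The difference between the treatments was read within each week, where both share the VC pool. For Dsg4, MXD exceeded N-CE by 3.54 ± 0.85 (log2, SD) in 1W and by 1.34 ± 0.46 in 2W, and the 4 pairings of single arrays ran from 2.75 to 4.33 and from 0.94 to 1.74. In 3W the difference was -0.21 ± 0.38, with pairings from -0.58 to 0.17 that span 0. With normexp the Dsg4 difference in 1W was 1.61. For Dsc2, MXD exceeded N-CE by 1.18 ± 0.19 in 2W, with pairings from 0.99 to 1.37, and by 0.22 and 0.36 in 1W and 3W. For Dsg3 the 2W difference was 0.55 ± 0.38, with pairings from 0.22 to 0.88. Dsg1a ran the other way in 2W, with a difference of -0.33 ± 0.07.

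Over the 3 weeks, limma called 0 of 41150 probes at an adjusted p under 0.05 for MXD against VC, for N-CE against VC and for MXD against N-CE. At an unadjusted p under 0.05 there were 4272, 1027 and 2026 probes. Dsg4 had a mean log2 ratio of 0.91 ± 0.78 (SE) for MXD with an adjusted p of 0.61 in limma, and -0.64 ± 0.78 for N-CE with an adjusted p of 1. The mean within-week difference of MXD and N-CE was 1.56 ± 0.89 for Dsg4 and 0.59 ± 0.25 for Dsc2, each with an adjusted p of 0.749 in limma. The fit treats weeks as replicates, so a value confined to 1 week enlarges the error, and a p above the threshold does not show that the groups were alike.

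The level of each member was also read in every group as normalized log2 intensity. For Dsg4, VC was at 7.76 ± 0.07 in 1W, 8.64 ± 0.16 in 2W and 9.16 ± 0.29 in 3W (SD, n = 4 readings of 1 pool each). The 4 VC readings of 1W, from 7.67 to 7.85, lay below those of 2W, from 8.52 to 8.87, which overlapped those of 3W, from 8.85 to 9.53. The order of all Dsg4 levels, from low to high, began with N-CE 1W at 6.63 ± 0.07, VC 1W and MXD 1W at 8.24 ± 0.27, whose readings did not overlap. VC 2W, N-CE 2W at 9.04 ± 0.42, VC 3W, MXD 3W at 9.27 ± 0.14 and N-CE 3W at 9.52 ± 0.29 followed, and each of these neighbours overlapped in single readings. MXD 2W at 10.40 ± 0.32 stood highest, above every reading of the other groups.

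Dsc2 had a different course. Its VC level was 8.36 ± 0.08 in 1W, 9.97 ± 0.09 in 2W and 9.78 ± 0.15 in 3W. The VC readings of 1W ended at 8.43, well below those of 2W and 3W, which overlapped. MXD 2W at 11.14 ± 0.19 was the highest Dsc2 level, and N-CE 2W at 9.92 ± 0.08 overlapped VC of the same week.

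For the other cadherins, VC levels also moved with the week. From 1W to 2W the VC level of Dsg2 by its representative probe went from 8.65 to 9.26, that of Dsc1 from 10.27 to 10.86 and that of Dsc3 from 6.94 to 7.66, and in 3W Dsc3 was back at 6.85. The next brightest Dsg2 probe was at 7.56 in 1W and 7.55 in 2W, so not all Dsg2 probes shared that step. Dsg3 went from 8.04 to 8.20 and 8.42, a step smaller than that of Dsg4. The VC levels of Pkp1, between 15.03 and 15.23, and of the representative Dsp probe, between 15.30 and 15.60, differed by no more than their readings within a week. The upstream Dsp probes did not stay as level. In VC of 1W, 2W and 3W the probe at base 6803 was at 8.62, 9.04 and 8.18. The probe at base 5665 was at 7.77, 8.41 and 7.82. The same VC pool read on the MXD and on the N-CE arrays of a week differed by up to 0.52, for Dsc1 in 3W, so week-to-week steps below about this size are not separable from technical spread. As week and slide cannot be told apart, no week-to-week step can be assigned to the skin alone.

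**Figure D3:**
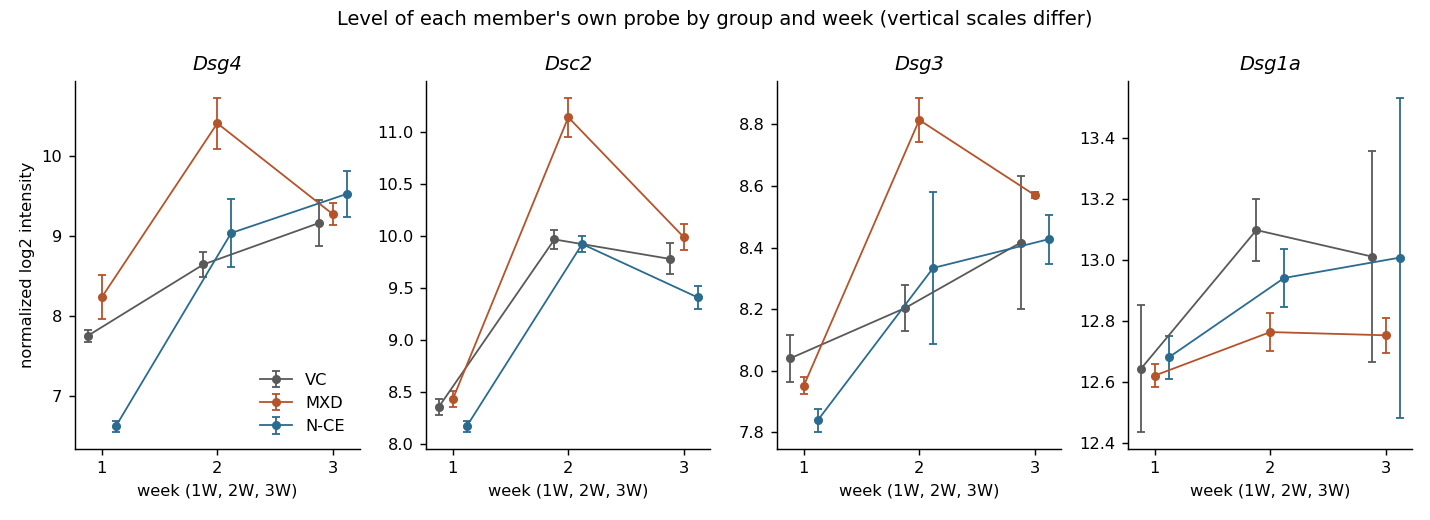
Normalized log2 intensity of the representative probe of Dsg4, Dsc2, Dsg3 and Dsg1a by week, for VC (grey, 4 readings a week), MXD (orange, 2) and N-CE (blue, 2), with SD bars and lines joining separate pools of mice. The vertical scales differ between panels. The MXD 2W pool is the highest point for Dsg4, Dsc2 and Dsg3, and for Dsg1a it lies below VC of that week.

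Of 13 other desmosome and plakin genes, Pkp2 rose and Dsg1c fell in MXD 2W, and 0 were called in the other comparisons. Pkp2, the plakophilin of simple epithelia and heart, gave 0.62 and 0.61. Dsg1c, a mouse copy of desmoglein 1, gave -1.09 and -1.10, but no accession of its probe matched the gene table. The list's median in MXD 2W was 0.12. For this and the lists below, the shares of all measured genes called in MXD 2W were 6.21% higher and 10.0% lower. The Dsg1b probe that represents that gene matched accessions of both Dsg1b and Dsg1c, so these copies are not read apart by it.

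Of 9 adherens junction genes, the sister system that ties cadherins to actin, only Cdh3 was called. P-cadherin (Cdh3), which marks the hair matrix and the basal layer, gave 1.07 and 0.82 in MXD 2W and -0.83 and -0.84 in N-CE 1W, the same directions as Dsg4. The list's median was 0.49 in MXD 2W and -0.22 in N-CE 1W.

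Of 12 measured proteases and inhibitors that act on desmosomes in the shedding epidermis, 3 rose and 2 fell in MXD 2W. Matriptase (St14) gave 1.02 and 0.93, its inhibitor Spint1 gave 1.17 and 0.57, and the kallikrein inhibitor Spink6 gave 1.47 and 1.85. The kallikrein Klk8 gave -0.90 and -0.93, and Klk5 was called lower too. Spink6 was also called in MXD 3W, with 1.29 and 1.35, but its ratios with normexp were 0.55 in MXD 2W and 0.50 in MXD 3W.

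Dsg4 was set beside genes of the hair shaft, among them the transcription factors Lef1, Hoxc13 and Foxn1, which are known to act on it. Whether these factors raise or lower Dsg4 was not tested, and moving the same way does not show that they activate it. All 3 rose in MXD 2W and fell in N-CE 1W, and 0 of 3 were called in the other comparisons. Lef1 gave 1.53 and 1.41 in MXD 2W and -1.91 and -1.94 in N-CE 1W. Hoxc13 gave 0.91 and 1.29, and -1.62 and -1.41. Foxn1 gave 1.57 and 0.95, and -0.72 and -0.98. With normexp the median of the 3 factors was 1.18 in MXD 2W in place of 1.26, and -0.68 in N-CE 1W in place of -1.51.

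The hair keratins had the same directions as Dsg4 in these comparisons. Of 12 hair shaft keratins, 12 were called higher in MXD 2W (median 1.34) and 11 lower in N-CE 1W (median -2.30), with Krt33b at 1.46 ± 0.12 and -2.73 ± 0.17. Of 5 inner root sheath keratins, 4 were called higher in MXD 2W (median 1.23) and 5 lower in N-CE 1W (median -2.80). In MXD 1W, where Dsg4 was not called, 4 hair shaft keratins were, with a list median of 0.61 beside 0.69 for Dsg4. The suprabasal epidermal keratins Krt1, Krt2 and Krt10 ran the other way, with 3 of 3 called lower in MXD 2W (median -1.43).

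**Figure D4:**
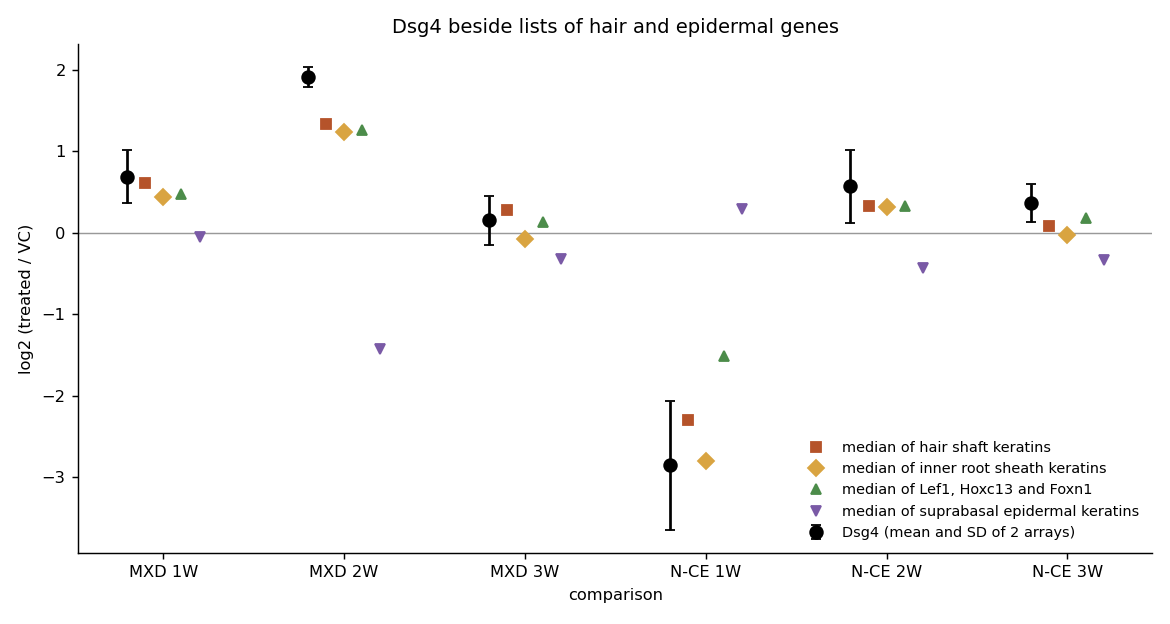
Log2 of treated over VC for Dsg4 (black, mean and SD of 2 arrays) and the median of 4 gene lists in the 6 comparisons. Dsg4 and the hair lists lie above 0 in MXD 2W and below 0 in N-CE 1W, whereas the suprabasal keratins lie at -1.43 in MXD 2W and 0.28 in N-CE 1W.

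The 3 genes whose 6 log2 ratios lay nearest to those of Dsg4 were A030014E15Rik, A030005L19Rik and Gm7544. They came from 15711 genes above background in both groups of every comparison, on at least 1 of the 2 arrays. Their root mean square differences from Dsg4 were 0.20, 0.23 and 0.25, with Pearson r of 0.995, 0.993 and 0.991 over the 6 comparisons, which share VC pools in pairs. The genes were picked for nearness on these same 6 ratios, so a high r follows from the choice. The ratio farthest from 0 is the dim Dsg4 value of N-CE 1W. A030014E15Rik was at 1.66 in MXD 2W and -3.18 in N-CE 1W.

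Markers of other cell types moved in the same comparisons, and their part in the values above was not tested. In MXD 2W, 10 of 10 skeletal muscle markers were called lower (median -1.46), with a summed processed signal of 224088 to 413486 in the MXD pool and 723660 to 920202 in VC. In the same comparison 4 of 6 adipocyte markers were called lower (157896 to 200265 against 223142 to 287918) and 6 of 6 melanocyte markers higher (78028 to 90295 against 30687 to 42632). In N-CE 1W, 5 of 5 measured melanocyte markers were called lower (5652 to 5858 against 17608 to 19222), and 0 of 10 muscle and 0 of 6 adipocyte markers were called. In MXD 1W, 7 of 10 muscle markers were called lower and 4 of 5 measured neutrophil markers higher. The basal epidermal keratins Krt5, Krt14 and Krt15 were all measured and were called in 0 of 6 comparisons.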

How the data were processed

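RNA of back skin was compared on 12 Agilent 2-colour arrays (6 dye-swap pairs). The authors deposited Feature Extraction output, which the file headers give as version 12.0.3.1 and the labels as 11.0.1.1. The deposited log10 ratio is Cy5 over Cy3 after background subtraction and LOWESS, the deposited p-value is that of the error model for a spot, and the deposited intensity is given per channel. A series table of log10 ratios was used as an alternative. Genes carry the names given in the array files, with probe positions on mm9.

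Control spots and outlier spots were left out, ratios were turned to log2 of treated over VC, and spots of a probe were averaged. The mean and SD are over 2 arrays. Each gene was read from the probe whose processed signal had the highest mean. Levels came from normexp (offset 50), loess and Aquantile. limma 3.58.1 (R 4.3.3) with Benjamini-Hochberg adjustment over all probes was fitted to the weekly means, with weeks as replicates. Python 3.11.15 was used for the rest, and the steps were tested on simulated data. The precision is limited by the number of arrays. Symbols of probe accessions came from the RefSeq table, in which 17 of the 20 member probes had an accession.

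All 10 members were named, and of each other list up to 4 called genes by size of fold. For a member called in 2 or more comparisons the 3 genes nearest in root mean square difference were named. Probes that disagreed with the representative probe in call or sign were given for some comparisons only. The members and the 15 lists were chosen with earlier results of these data known. Alternatives were the P criterion, symmetric folds, normexp with loess, the series table, arithmetic means, every probe, a filter on dim probes, each array alone, the slide as a random block, each treatment fitted alone, each week left out and scaling levels by the 75th percentile.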

Additional observations from a re-analysis of the deposited data

Results flagged for a closer look

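For every member, the comparisons of a week (MXD against N-CE) and of a treatment (week against week) were set side by side, 90 pairs in all. In 22 of them both arrays of one comparison lay above 0 and both of the other below 0. Such pairs were not counted over all genes, so whether 22 is unusual is not known. Each comparison is 1 pool on 2 arrays, so these differences of log2 ratios were not tested, and comparisons of a week share a VC pool. In 4 pairs at least 1 of the values was called. Dsg4 differed by 3.54 between MXD 1W and N-CE 1W, by -3.42 between N-CE 1W and N-CE 2W and by -3.21 between N-CE 1W and N-CE 3W, and all these rest on the dim N-CE 1W value. Dsg3 differed by -0.81 between MXD 1W and MXD 2W.

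In the other 18 pairs no value was called. Between treatments within a week, the MXD minus N-CE difference was -0.31 for Dsg1a and 0.22 for Dsc2 in 1W, and -0.20 for Pkp1 in 3W. Between MXD 1W and MXD 2W, the first minus the second was -0.30 for Pkp1, -0.48 for Jup and -0.25 for Dsp. Between MXD 2W and MXD 3W it was 0.61 for Dsc1, 0.45 for Pkp1 and 0.37 for Dsp. Between N-CE 1W and N-CE 2W it was -0.74 for Dsg2, 0.26 for Dsg1a, -0.26 for Pkp1 and -0.34 for Dsp. Between N-CE 1W and N-CE 3W it was -0.44 for Dsg3, 0.31 for Dsg1a and -0.21 for Pkp1. Between N-CE 2W and N-CE 3W it was 0.24 for Dsg2 and -0.50 for Dsc3.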

How the results depend on the processing

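In MXD 2W, Dsg4 and Dsc2 were called higher under every alternative, and Dsg3 under all but normexp by fold alone, which left 2 members higher. On single arrays the number was between 3 (array 1) and 5 (array 2, with Dsg2 and Dsc1 added). With every probe counted it was 4, as a second Dsg2 probe was called, whose ratio with normexp was 0.31. With normexp and no P criterion, Dsg1a was lower there (1 member against 0), where 22.0% of all genes were lower by fold alone with the deposited ratios. The call of Dsg4 in N-CE 1W was lost (0 members lower) when probes had to exceed background in both groups on both arrays. The N-CE signal of Dsg4 did so on 1 array only, so the loss in N-CE 1W follows from the filter itself. Without the P criterion, 2 members (Dsg4 and Dsg2) were lower there by the deposited ratios (8.52% of all genes), normexp or the series table, and single arrays with their P called 1 to 2. Without it, 1 member (Dsg4) was higher in MXD 1W by the deposited ratios (3.03% of all genes) or the series table, and single arrays with their P called 0 to 1. In N-CE 3W, 1 member (Dsc1) was lower without it by the deposited ratios (5.30% of all genes), normexp or the series table, and single arrays with their P called 0 to 1. In N-CE 2W single arrays called 0 to 1 member higher (Dsg4, on array 1). The causes were not tested. The share of all genes called was not counted for single arrays or for every probe, so those counts of members have no background beside them. Of 60 member ratios, 59 kept their sign with normexp and 51 on each array alone. limma called 0 probes in all alternatives. With the 75th percentile scaling the VC step from 1W to 2W was 1.13 for Dsg4, 1.84 for Dsc2 and 1.32 for Dsc3, and that of Dsc3 from 2W to 3W was -1.59. The alternatives moved 15 of 108 counts of members and 138 of 1440 counts of the 15 lists (members included) by over 1.5 times, and 69 of 630 list medians and 7 of 30 VC steps by over 1 SD. The list medians include single arrays, which stay near 1 SD by construction. Probes near background limit Dsg4 in N-CE 1W, the second Dsg3 probe and Dsc3.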

Other observations

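Other keratinocyte genes moved in the comparisons in which members were called. In MXD 2W the cornified envelope genes, which build the outer shell of epidermal and hair cells, were split: 4 of 10 measured genes were called higher and 3 lower, with Sprr1b at 1.20 ± 0.49 and Tgm3 at 1.19 ± 0.83 against Flg2 at -1.55 ± 0.25 and Sprr2d at -1.56 ± 0.14. Of 5 wound and companion layer keratins, 4 were called higher there, with Krt75 of the companion layer at 1.24 ± 0.12. Krt75 was called lower in N-CE 1W at -1.72 ± 0.03, the same direction as Dsg4. In MXD 1W, where 0 members were called, the wound keratins Krt16 and Krt6b were called higher at 2.78 ± 0.20 and 1.81 ± 0.31, and Sprr2d at 3.11 ± 0.25.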
